A study of Mus musculus with 16 samples.

Results

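The 10 genes described here carry out the antigen presentation route of major histocompatibility complex (MHC) class I and the immunoproteasome that feeds it. They were chosen by symbol with earlier results of these data known, as were the gene lists used below. Counts of these genes set beside the share over all genes are therefore a description. All 10 were found among the 35415 genes of the deposited tables, with counts between 52 and 13103 per library. All 10 were also among the 14749 genes with enough counts to be tested. The gastrocnemius, a calf muscle, was taken from male BALB/c mice bought at an age of 8 weeks, and RNA of 4 of the 12 mice per group was sequenced. Mice of the C (control) group had neither tumor nor training, those of the E group (exercise) were trained without a tumor, those of the T group had a CT26 tumor without training, and those of the TE group had both. The tumor line CT26 is a BALB/c colon carcinoma, and its cells were injected under the skin of the left hind limb flank, while tumor-free mice received saline under the same anesthesia. Trained mice ran on a treadmill for 4 weeks, on 6 days a week and for 60 min each day, at a speed of 14 m/min, and the untrained mice were placed on a treadmill that did not move. The leg from which each muscle was taken was not stated.

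Class I molecules show peptides from inside a cell to CD8+ T cells. The proteasome cuts proteins into peptides, and under interferon gamma its catalytic subunits are exchanged for Psmb8, Psmb9 and Psmb10, which forms the immunoproteasome. Tap1 and Tap2 form the transporter that carries the peptides into the endoplasmic reticulum, and Tapbp (tapasin) holds the empty class I molecule at that transporter while peptide is loaded. The molecule itself is a heavy chain, here H2-K1 or H2-D1, bound to the light chain beta-2 microglobulin, encoded by B2m. Nlrc5 is the transactivator of these genes and acts with the RFX, NF-Y and CREB factors at their promoters. Resting muscle fibers are known for little class I on their surface, while inflamed muscle shows more.

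Of the 10 genes, 7 lie in the MHC region of chromosome 17. In the GENCODE annotation of GRCm39, Psmb9 (chr17:34400960-34406738, minus strand), Tap1 (chr17:34405996-34416199), Psmb8 (chr17:34416690-34420428) and Tap2 (chr17:34422501-34435829) stand side by side within 34870 bases. Tapbp (chr17:34134873-34148267) and H2-K1 (chr17:34214987-34219321, minus strand) lie before this cluster, and H2-D1 (chr17:35481691-35486475) lies beyond it. B2m (chr2:121977957-121983594), Psmb10 (chr8:106662362-106665077, minus strand) and Nlrc5 (chr8:95160984-95253900) lie elsewhere. The 4 promoter stretches below are shown because the heavy chains and B2m are known for shared control elements, and because Psmb8 was the immunoproteasome gene with the largest difference between TE and E. RefSeq promoters of GRCm38.p6, 250 bases before to 50 after each start, were matched for 8 of the 10 genes, and Tap2 and Nlrc5 were not matched. Capitals mark an interferon-stimulated response element (ISRE, the letters GAAA, any 2 bases and GAAA again), an interferon gamma activated site (GAS, TTCNNNGAA), a CCAAT box (ATTGG on the other strand) and matches to the NF-kappa B consensus, each searched on both strands. The NF-kappa B match of H2-K1 and of H2-D1 is a pair of matches that overlap each other.
B2m, chr2:122147536-122147650, plus strand: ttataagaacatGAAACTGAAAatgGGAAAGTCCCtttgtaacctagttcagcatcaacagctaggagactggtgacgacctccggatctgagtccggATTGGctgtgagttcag
H2-K1, chr17:34000323-34000470, minus strand: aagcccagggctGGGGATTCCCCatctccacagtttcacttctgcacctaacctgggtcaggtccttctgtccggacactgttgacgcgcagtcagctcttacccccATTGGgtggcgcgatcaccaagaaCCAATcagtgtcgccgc
H2-D1, chr17:35262911-35263057, plus strand: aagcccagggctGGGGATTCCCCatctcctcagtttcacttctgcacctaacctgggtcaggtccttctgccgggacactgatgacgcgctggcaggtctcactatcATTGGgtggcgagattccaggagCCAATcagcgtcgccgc
Psmb8, chr17:34198086-34198118, plus strand: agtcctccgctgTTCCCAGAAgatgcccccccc

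The stretches of H2-K1 and H2-D1 open with the same letters up to the NF-kappa B match and each hold a pair of CCAAT boxes. In the B2m stretch an ISRE stands just before an NF-kappa B match, with a CCAAT box further on. An exact match to the ISRE letters was found in 1 of the 8 matched genes (B2m) and in 3.44% of all 32851 promoters of the same length. The GAS letters were found in 1 of 8 (Psmb8) and in 8.3% of all. Looser forms of these elements were not searched, so genes without a match may still hold one. CCAAT was found in 6 of 8, all but Psmb8 and Psmb10, and in 37.4% of all promoters. The NF-kappa B consensus was found in 3 of 8 (B2m, H2-D1 and H2-K1) and in 8.46% of all. Tap1 and Psmb9 are read in opposite directions from RefSeq starts 226 bases apart, so that 275 bases lie in both windows and hold 1 CCAAT match, printed here because both genes share it.
Tap1 and Psmb9, chr17:34187306-34187580, plus strand: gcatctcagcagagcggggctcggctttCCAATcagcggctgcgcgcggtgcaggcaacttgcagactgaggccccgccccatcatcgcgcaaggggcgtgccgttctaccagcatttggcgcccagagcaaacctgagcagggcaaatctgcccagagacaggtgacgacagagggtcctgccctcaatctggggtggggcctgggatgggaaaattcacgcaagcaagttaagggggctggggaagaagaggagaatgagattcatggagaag

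The libraries held between 35628211 and 37635741 counts each. Before normalization factors (TMM), 3 counts amounted to at most 0.0842 CPM (counts scaled to the library total). The CPM values below carry the TMM factors. Muscle fiber markers (Acta1, Ckm, Myh4, Myh1, Myh2, Tnnt3 and Actn3) summed to between 51580 and 60010 FPKM, counts scaled to library total and gene length, in all 16 libraries. Markers of lymphoid tissue set 3 libraries apart, the fourth TE mouse (TE4), the third C mouse (C3) and the first E mouse (E1). T and NK cell markers summed to 16.2 FPKM in TE4, 7.19 in C3 and 4.16 in E1, compared with 0.0934 to 3.54 in the other 13 libraries. Lymph node markers summed to 109.4 FPKM in TE4, 37.4 in C3 and 35.5 in E1, compared with 5.77 to 25.6 in the other 13. Glycam1, which is made by lymph node vessels, had 1023 counts in TE4 and 0 counts in the other 3 TE libraries. Their part in the results below was not tested beyond leaving these libraries out. Cells of bulk muscle were not separated, so more cells of a type and more RNA per cell cannot be told apart.

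Levels between genes are compared in FPKM, which is per length. B2m stood highest in every group, with a mean of 270.9 ± 29.9 FPKM in C mice (SD, n = 4), and H2-D1 followed at 80.3 ± 9.46. H2-K1 (22.7 ± 4.02) and Tapbp (17.4 ± 1.5) came next, and their ranges in C overlapped. Psmb8 (9.82 ± 1.51) and Psmb10 (9.05 ± 0.672) could not be separated by their spread, nor could Tap2 (5.78 ± 0.815) and Psmb9 (5.66 ± 0.605). Tap1 stood at 2.06 ± 0.308 FPKM and Nlrc5 lowest at 0.299 ± 0.120. BALB/c mice carry the H2-d haplotype and the reference genome carries H2-b, so the levels of H2-K1 and H2-D1 rest on reads that matched another haplotype. Of the 100-base windows of the reference H2-D1 transcript, 4.59% (93 of 2026) also occur in other class I genes of the reference. This compares with 0 of the reference H2-K1 windows, and sequences of the H2-d haplotype were not examined. Tap1 and Psmb9 share 743 exonic bases on opposite strands, and 52.8% of the exonic bases of Tapbp lie in other gene models, among them Zbtb22. The strand setting of the counting was not stated, so reads in these bases cannot be assigned with certainty.

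**Figure D1:**
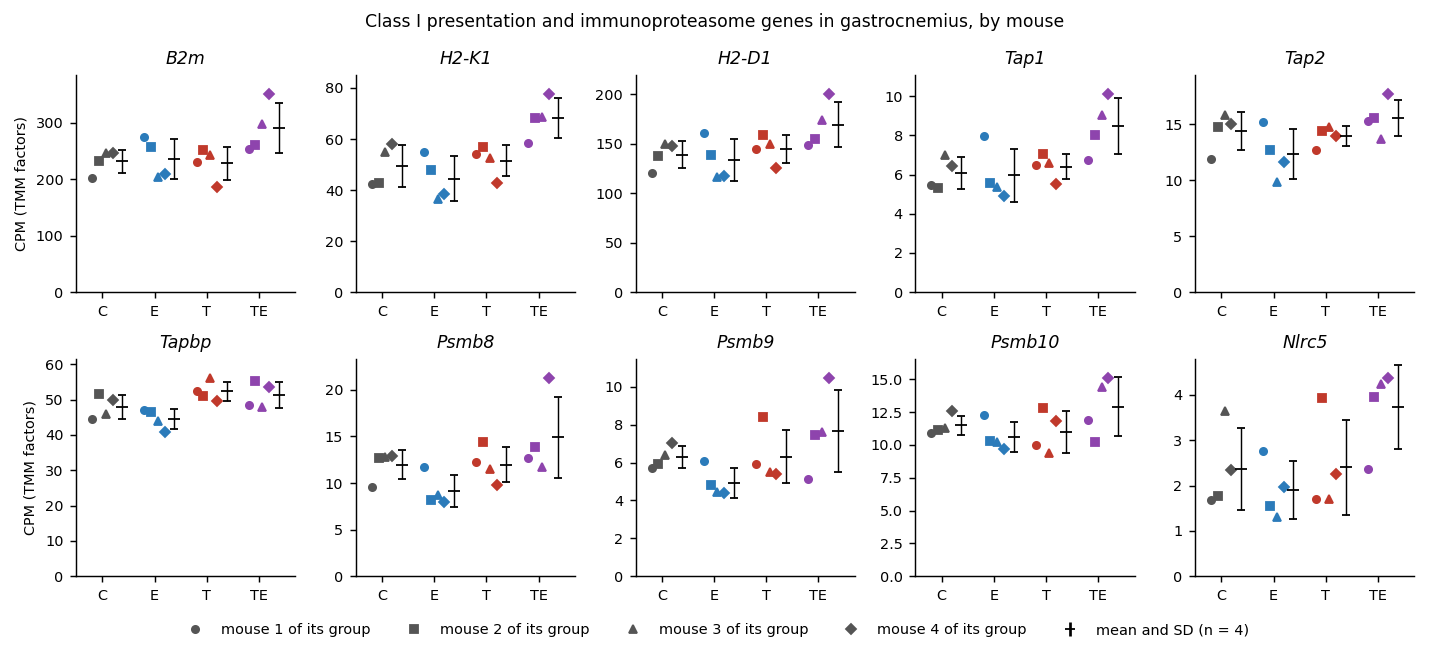
CPM with TMM factors (y axis, from 0) of the 10 genes in the C, E, T and TE groups (x axis), with 1 symbol per mouse and the mean with SD (n = 4) beside each group. The TE group has the highest mean for 9 of the 10 genes, all but Tapbp, and TE4 (diamond) is the highest library for the same 9.

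The clearest difference was between tumor-bearing and tumor-free mice that had both been trained. All 10 genes were higher in TE than in E, with a median log2 fold change of 0.43, compared with 0.0029 over all 14749 genes. No member passed an adjusted p of 0.05 with edgeR's quasi-likelihood test, a threshold that 0.231% of all genes passed. At an unadjusted p under 0.05, 10 of 10 members were higher and 0 were lower, compared with 3.7% of all genes higher and 5.53% lower. DESeq2 called 2 members at its adjusted p of 0.05, H2-K1 (adjusted p = 0.0028) and Psmb8 (adjusted p = 0.0154), among 180 genes called in all. Without E1, edgeR called 1 member, H2-K1, with an adjusted p of 0.0342, among 33 genes called in all.

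Among the heavy and light chains, H2-K1 separated the groups most fully. Its level was 58.5, 68.1, 68.5 and 77.5 CPM in the 4 TE mice, and 55.1, 48.0, 36.4 and 38.3 CPM in the 4 E mice. In C mice it was 42.2, 42.8, 54.9 and 58.0 CPM, and in T mice 54.1, 56.8, 52.5 and 42.9 CPM. Every TE library was therefore above every library of each of the other 3 groups. TE exceeded E by a log2 fold change of 0.62 (SE 0.138, 95% interval 0.33 to 0.91), a fold of 1.53, with an unadjusted p of 0.000318 and an adjusted p of 0.0919 by edgeR. H2-D1, a further classical heavy chain, was 149.1, 154.6, 174.5 and 200.1 CPM in TE and 161.0, 139.2, 116.8 and 117.9 CPM in E, where the groups overlapped in E1. Its log2 fold change was 0.34 (SE 0.114), with an adjusted p of 0.312 by edgeR. B2m, the light chain that every class I molecule needs, was 254.6, 260.0, 298.2 and 350.6 CPM in TE and 274.6, 256.9, 203.4 and 209.0 CPM in E, again with overlap. The B2m log2 fold change was 0.30 (SE 0.121), with an adjusted p of 0.436 by edgeR.

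Of the immunoproteasome subunits, Psmb8, which has the chymotrypsin-like activity, was 12.7, 13.9, 11.7 and 21.2 CPM in TE and 11.7, 8.21, 8.74 and 7.96 CPM in E. TE3 and E1 were nearly level, and the value of TE4 was far above the rest. The log2 fold change of Psmb8 was 0.70 (SE 0.178, 95% interval 0.33 to 1.08), a fold of 1.63, with an adjusted p of 0.130 by edgeR, and it was 0.49 without TE4 (adjusted p = 0.330). Psmb9 was 5.13, 7.44, 7.60 and 10.4 CPM in TE and 6.10, 4.80, 4.43 and 4.37 CPM in E, and TE1 lay within the E range. Its log2 fold change was 0.64 (SE 0.190), with an adjusted p of 0.237 by edgeR. Psmb10, encoded outside the MHC on chromosome 8, had the smaller log2 fold change of 0.28 (SE 0.127, adjusted p = 0.520 by edgeR). Its range was 10.2 to 15.1 CPM in TE and 9.69 to 12.3 CPM in E.

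In the transporter and loading step, Tap1 was 6.76, 7.995, 9.04 and 10.1 CPM in TE and 7.96, 5.59, 5.37 and 4.91 CPM in E. E1 was the E mouse within the TE range. Tap1 differed by a log2 fold change of 0.51 (SE 0.159, adjusted p = 0.272 by edgeR) and its partner Tap2 by 0.33 (SE 0.120, adjusted p = 0.374 by edgeR). Tapbp had the smallest log2 fold change of the 10 at 0.20, with the smallest SE of 0.0709, and its lowest TE value of 47.8 CPM was above its highest E value of 47.0 CPM. Nlrc5, the transactivator, had the largest log2 fold change at 0.97 (SE 0.322, 95% interval 0.29 to 1.65), a fold of 1.96, with an adjusted p of 0.312 by edgeR. With limma on log2(FPKM + 1), a scale that understates changes of low genes, its difference was 0.23. It was also the lowest gene, at 2.36, 3.96, 4.24 and 4.36 CPM in TE and 2.76, 1.56, 1.32 and 1.97 CPM in E. Every TE library was above every E library for 3 of the 10 genes (H2-K1, Tapbp and Psmb8), compared with 2.68% of all genes. On FPKM, which carries no TMM factor, this held for 1 gene, H2-K1. The mean log2 TMM factor of TE minus that of E was −0.05, and dividing by the factors raises the CPM of TE relative to E by that amount.

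**Figure D2:**
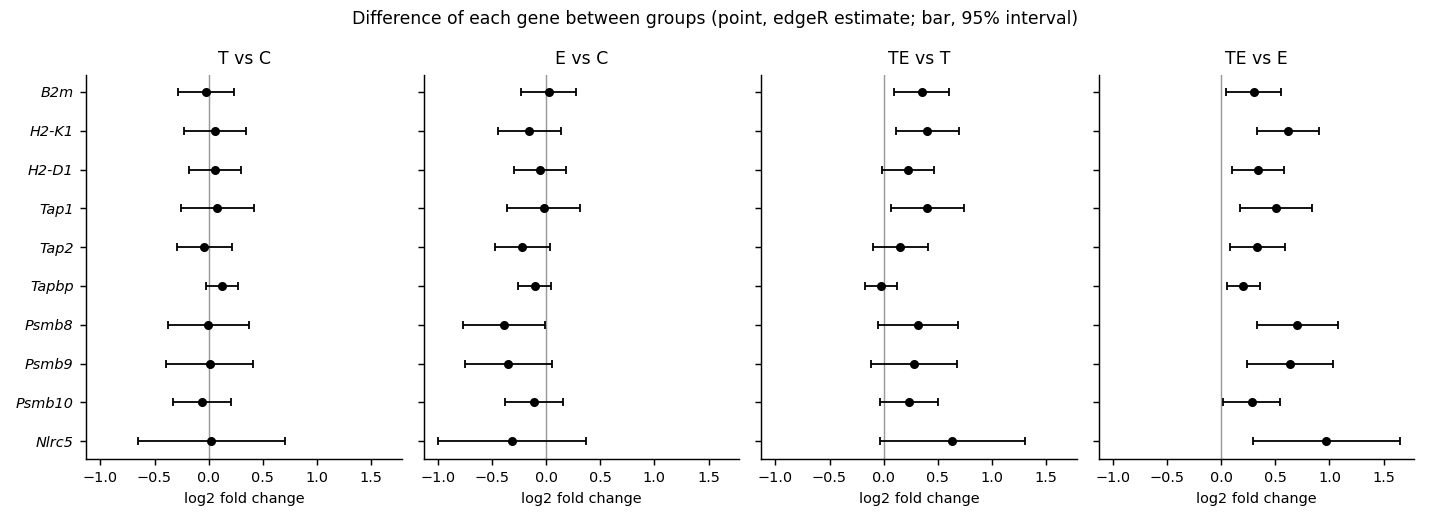
Log2 fold change (x axis) of each of the 10 genes (y axis) in T vs C, E vs C, TE vs T and TE vs E, with the edgeR estimate as a point and its 95% interval as a bar. In TE vs E all 10 points and intervals lie above 0, from 0.20 for Tapbp to 0.97 for Nlrc5, while in T vs C all 10 intervals cross 0.

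Training was then compared among tumor-bearing mice. In TE compared with T, 9 of 10 genes were higher and Tapbp was not (log2 fold change −0.03), with a median of 0.30 compared with 0.0014 over all genes. No member and 0% of all genes passed an adjusted p of 0.05 with edgeR, and DESeq2 called 0 members among 7 genes. Before adjustment, 3 of 10 members were higher at p under 0.05 (B2m, H2-K1 and Tap1) and 0 lower, compared with 2.87% of all genes higher and 3.01% lower. B2m was 230.9, 251.2, 243.8 and 186.7 CPM in T, below the 4 TE values given above, and its log2 fold change was 0.35 (SE 0.121, unadjusted p = 0.00993, adjusted p = 0.738 by edgeR). H2-K1 was higher in TE by 0.40 (SE 0.137, unadjusted p = 0.00915, adjusted p = 0.729 by edgeR), and Tap1 also by 0.40 (SE 0.159, unadjusted p = 0.0209, adjusted p = 0.806 by edgeR). Every TE library was above every T library for 2 of the 10 genes, B2m and H2-K1, compared with 1.24% of all genes. The immunoproteasome subunits had log2 fold changes of 0.32 (Psmb8), 0.28 (Psmb9) and 0.23 (Psmb10), with 95% intervals that all included 0, and of 0.10, 0.098 and 0.15 without TE4. The count of 3 moved to 8 without T2, 6 without TE1, 5 without TE2, and 2 without T4 or TE4. Over all genes of the fit without TE4, 763 had an unadjusted p under 0.05 in either direction. The median was 0.15 without TE4.

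The tumor alone was compared in untrained mice. T and C did not separate for any of the 10 genes, where log2 fold changes ran from −0.06 (Psmb10) to 0.13 (Tapbp), with a median of 0.02. No member passed an adjusted p of 0.05 with edgeR or with DESeq2, while 0.678% of all genes passed it with edgeR. Before adjustment, 0 members were higher and 0 lower at p under 0.05, compared with 8.23% and 5.96% of all genes. The 95% intervals of the log2 difference were −0.23 to 0.35 for H2-K1, −0.28 to 0.23 for B2m and −0.37 to 0.37 for Psmb8. For Nlrc5 the interval was wider, from −0.66 to 0.70, with CPM values of 1.69, 1.77, 3.64 and 2.34 in C and 1.70, 3.93, 1.71 and 2.27 in T. In each of these groups 1 mouse, C3 and T2, was well above the other 3.

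Training alone was compared in tumor-free mice. In E compared with C, 9 of 10 genes were lower and B2m was not (log2 fold change 0.02), with a median of −0.13. No member passed an adjusted p of 0.05 with edgeR or with DESeq2, compared with 0.0881% of all genes with edgeR. At an unadjusted p under 0.05, 0 members were higher and 1 was lower, compared with 8.51% and 5.67% of all genes. This was Psmb8, at 9.59, 12.7, 12.7 and 12.9 CPM in C, where C1 was low, against the E values given above. Its log2 fold change was −0.39 (SE 0.178, unadjusted p = 0.0435, adjusted p = 0.339 by edgeR). Psmb9 differed by −0.35 (SE 0.191, unadjusted p = 0.0853) and Tap2 by −0.22 (SE 0.120, unadjusted p = 0.0828) in the same test. Without E1, whose levels were the highest of the E mice for all 10 genes, 3 members were lower at an unadjusted p under 0.05 and the median was −0.24, beside 2155 genes in either direction over all genes of that fit. The count was 2 without C1 or TE1 and 0 without any one of C2, C3, C4, E2, E3 and E4, and the median was −0.08 without C4 or E4.

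The factorial comparisons use the same 16 libraries and are not independent of those above. The mean of T and TE exceeded the mean of C and E for all 10 genes, with a median log2 difference of 0.25. For this tumor main effect 0 members passed an adjusted p of 0.05 with edgeR, compared with 1.36% of all genes, and DESeq2 called 1, H2-K1 (adjusted p = 0.0273), among 479 genes called in all. The unadjusted p was under 0.05 for 7 members, all higher, and for 0 lower ones, compared with 7.41% and 6.81% of all genes. The smallest values were those of H2-K1 (log2 difference 0.34, SE 0.0971, adjusted p = 0.105 by edgeR) and Tapbp (0.17, SE 0.0501, adjusted p = 0.124 by edgeR). The count of 7 became 4 without E3 or TE4 and 8 without E1. Over all genes, 2133 had an unadjusted p under 0.05 in either direction without TE4 and 1839 without E1. For the training main effect 0 members passed the adjusted threshold with either tool, compared with 0.00678% of all genes with edgeR. At an unadjusted p under 0.05, 1 member was higher, B2m (log2 difference 0.19, SE 0.0854, adjusted p = 0.447 by edgeR), and 0 were lower, compared with 5.95% and 4.8% of all genes. This count became 2 without TE1 and 0 without any one of C1, C2, E1, E2, T1, T4, TE3 and TE4. Over all genes, 1655 had an unadjusted p under 0.05 for training without E1 and 1517 without TE4.

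The interaction asks whether the difference with training was another in tumor-bearing than in tumor-free mice. It was positive for all 10 genes, with a median log2 value of 0.40, compared with −0.0013 over all genes. No member and 0% of all genes passed an adjusted p of 0.05 with edgeR, and DESeq2 called 0 members among 21 genes. The unadjusted p was under 0.05 for 4 members with a positive interaction (H2-K1, Psmb8, Psmb9 and Tap2) and for 0 with a negative one, compared with 3.7% and 5.51% of all genes. The interaction was 0.56 for H2-K1 (SE 0.194, unadjusted p = 0.0105, adjusted p = 0.438 by edgeR) and 0.70 for Psmb8 (SE 0.251, unadjusted p = 0.0120, adjusted p = 0.444 by edgeR). Psmb9 (0.63, SE 0.269) and Tap2 (0.38, SE 0.170) had unadjusted p-values of 0.0322 and 0.0408. The count of 4 became 9 without E1, 7 without C1, T2 or TE1, and 2 without C4, E3, E4, T1 or TE4. Over all genes, 1483 had an unadjusted p under 0.05 in either direction without E1 and 1164 without TE4.

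The genes were also read library by library, as the mean over the 10 genes of log2 CPM relative to the mean of the C group. This mean was 0.06, 0.25, 0.31 and 0.58 in the TE mice and 0.13, −0.19, −0.37 and −0.32 in the E mice. It was −0.22, −0.07, 0.14 and 0.10 in the C mice and −0.05, 0.24, −0.04 and −0.13 in the T mice. TE4 was the highest library for 9 of the 10 genes, with T3 highest for Tapbp. E1 stood apart from the other E mice and overlapped TE1. Both of these libraries, TE4 and E1, are among the 3 with the highest lymphoid marker sums. The third, C3, had the highest mean of the C mice.

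**Figure D3:**
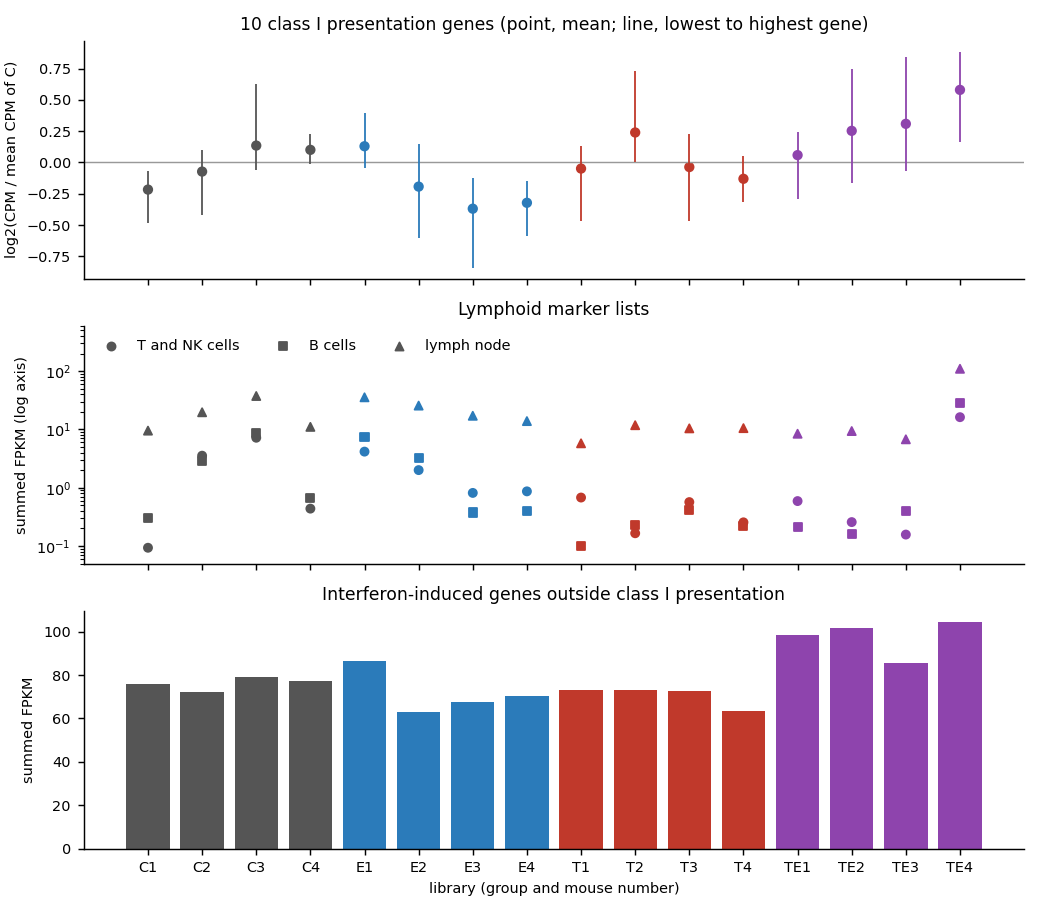
Top, mean over the 10 genes of log2 CPM relative to the C mean (point) with the lowest and highest gene (line). Middle, summed FPKM of T and NK cell, B cell and lymph node markers on a log axis, and bottom, summed FPKM of interferon-induced genes, for the 16 libraries on the x axis. TE4 has the highest mean of 0.58 and the highest lymphoid sums, while the interferon sum is 85.5 to 104.5 in the 4 TE libraries.

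The comparison of TE with E was therefore repeated without TE4, C3 and E1. All 10 genes remained higher, 9 of them at an unadjusted p under 0.05, with 0 at an adjusted p under 0.05 by edgeR and a median log2 fold change of 0.47. Over all genes of that fit, 1128 had an unadjusted p under 0.05 in either direction and 16 an adjusted p under 0.05. H2-K1 was then higher by 0.67 (adjusted p = 0.106 by edgeR). Without TE4 only, the median was 0.35 and 8 of the 10 genes had an unadjusted p under 0.05, beside 1248 over all genes of that fit. The other 3 TE libraries had T and NK cell marker sums of 0.157 to 0.59 FPKM and the 4 E libraries had sums of 0.814 to 4.16 FPKM. Cd8a was at 0 to 1 counts in each of these 3 TE libraries. In TE compared with T, leaving the 3 libraries out kept the count at 3 members, beside 708 genes over all of that fit, and took the median to 0.15. Neutrophil markers also followed the tumor, with sums of 19.6 to 34.4 FPKM in TE and 14.4 to 81.4 in T, compared with 1.25 to 8.20 in C and E. Red cell markers summed to 862.6 to 1271 FPKM in TE and 732.9 to 820.4 in T, compared with 360.7 to 581.0 in C and E. The part of these markers in the results was not tested.

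The immunoproteasome subunits were next set against the constitutive subunits that they replace. Psmb5, Psmb6 and Psmb7 had log2 fold changes in TE vs E of 0.03 (95% interval −0.13 to 0.19), 0.10 (−0.03 to 0.23) and 0.08 (−0.06 to 0.21). Psmb8 amounted to 19.2% ± 4.36 of the FPKM of Psmb5 in C (SD, n = 4), 15.2% ± 3.14 in E, 19.3% ± 2.61 in T and 24.4% ± 7.86 in TE. TE4 reached 35.9%, and the other 3 TE libraries lay between 19.1% and 22.9%. Psmb9 amounted to 4.67% ± 0.688 of Psmb6 in C, 3.89% ± 0.684 in E, 4.87% ± 1.19 in T and 5.61% ± 1.52 in TE. Psmb10 amounted to 4.35% ± 0.480 of Psmb7 in C, 4.21% ± 0.480 in E, 4.16% ± 0.748 in T and 4.85% ± 0.932 in TE. All 3 ratios had their highest group mean in TE, and for each of them the TE and E ranges overlapped. Transcript ratios of this kind do not measure how many proteasomes carry either subunit.

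**Figure D4:**
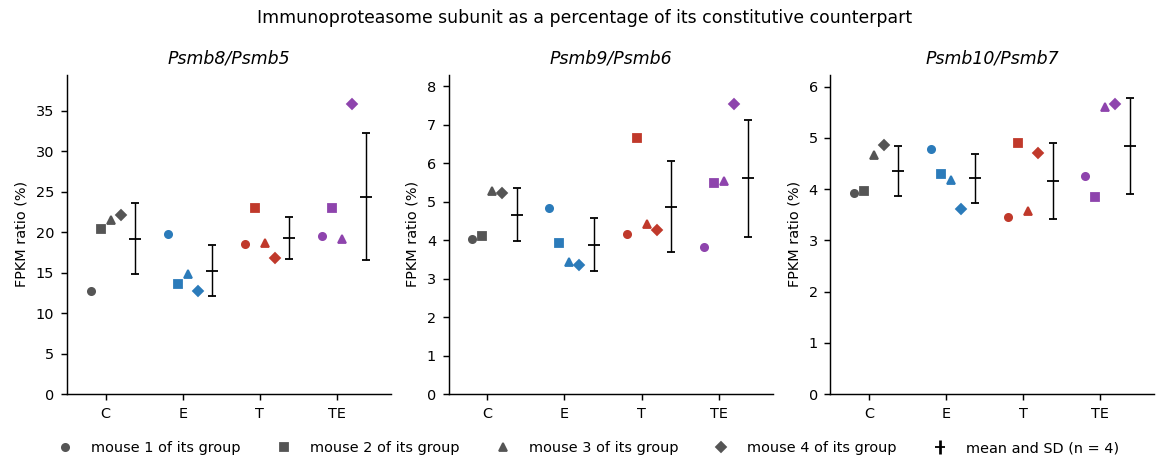
FPKM of Psmb8, Psmb9 and Psmb10 as a percentage of their constitutive counterparts Psmb5, Psmb6 and Psmb7 (y axes, from 0) in the 4 groups (x axis), with 1 symbol per mouse and the mean with SD (n = 4). TE4 has the highest ratio in all 3 panels, at 35.9% for Psmb8.

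The other class I heavy chains of the H2 complex were read beside the 10 genes. Of 13 listed, 11 were in the tables and 10 were tested, and H2-L and H2-T10 were not analysed here. In TE compared with E all 10 were higher, 4 of them at an unadjusted p under 0.05, compared with 3.7% of all genes higher. None had an adjusted p under 0.05 by edgeR, and the median log2 fold change was 0.59. The summed FPKM of the list was 76.7 in TE4 and 50.2 to 56.7 in the other TE libraries. It was 53.2 in E1 and 40.2 to 41.6 in the other E libraries. H2-Q4 was higher in TE by 0.65 (SE 0.178, adjusted p = 0.177 by edgeR), with 21.0 ± 5.45 FPKM in TE and 13.8 ± 3.14 in E (SD, n = 4). Its range of 16.9 to 28.96 FPKM in TE overlapped that of 11.3 to 18.3 in E. H2-T23, which presents leader peptides of other class I chains, was higher by 0.46 (SE 0.113, adjusted p = 0.116 by edgeR). In T compared with C, 0 of the 10 had an unadjusted p under 0.05, compared with 8.23% of all genes higher and 5.96% lower, and the median was 0.04. These genes are close relatives of each other and of H2-D1, and the counting could split their reads.

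General loading and trimming factors of the endoplasmic reticulum stood at another value. Of 6 tested (Calr, Canx, Pdia3, Erap1, Tapbpl and Hspa5), 0 had an unadjusted p under 0.05 in TE vs E, and the median log2 fold change was 0.01. For this and the counts that follow, 3.7% of all genes were higher and 5.53% lower at that threshold in TE vs E. Of 7 proteasome partners, 3 were higher at an unadjusted p under 0.05 and 0 at an adjusted p by edgeR. These were Psme2 (log2 fold change 0.24), Psme1 (0.22) and Pomp (0.18), which are subunits of the interferon-induced proteasome activator and the proteasome assembly factor. Of 15 regulators tested, 4 were higher in TE vs E at an unadjusted p under 0.05 and 0 at an adjusted p by edgeR, among them Irf1 (log2 fold change 0.37), Jak2 (0.27) and Creb1 (0.20). Jak2 and Irf1 act in the interferon gamma signal, and Creb1 is a CREB factor. Of the 15, 10 were higher and 5 lower at any p, with a median of 0.10. The RFX and NF-Y subunits ran from −0.20 (Nfya) to 0.10 (Rfxap), with Nfyc at −0.15 and Rfx5 at −0.03, and 0 of these 6 had an unadjusted p under 0.05. Ifng itself had 1 count in 1 TE library and 0 in the other 15, which allows up to 3 counts in each. Class II genes, 6 in all, had 0 at an unadjusted p under 0.05 in TE vs E and a median of 0.50, with TE4 at 181.4 summed FPKM and the other TE libraries at 43.7 to 60.02.

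Interferon-induced genes outside class I presentation included genes that passed the adjusted threshold. In TE compared with E, 6 of 20 tested rose and 0 fell at an adjusted p under 0.05 by edgeR, compared with 0.231% of all genes in either direction. The median log2 fold change over the 20 was 0.40. The 6 were Tgtp1 (log2 fold change 1.47, adjusted p = 0.00799), Gbp4 (1.05, adjusted p = 0.00699), Iigp1 (0.88, adjusted p = 0.0310), Irgm2 (0.85, adjusted p = 0.0371), Igtp (0.75, adjusted p = 0.00699) and Gbp7 (0.46, adjusted p = 0.0464) by edgeR. All 6 encode interferon-induced GTPases, as do 12 of the 20 genes tested, and several of these have near-identical copies that can share reads. The other 6 GTPases did not pass, with log2 fold changes of 0.59 (Gbp5, adjusted p = 0.0962 by edgeR), 0.41 (Gbp6), 0.36 (Gbp9), 0.32 (Gbp3), 0.25 (Gbp2) and 0.12 (Irgm1). The remaining 8 genes did not pass either, with log2 fold changes of 1.12 (Cxcl10), 0.85 (Cxcl9), 0.40 (Isg15), 0.32 (Stat2), 0.26 (Bst2), 0.02 (Ifit1), −0.02 (Irf7) and −0.14 (Ifit3). In TE compared with T, 14 of the 20 were higher at an unadjusted p under 0.05, compared with 2.87% of all genes, and 0 had an adjusted p under 0.05 by edgeR. All 20 had log2 fold changes above 0. The summed FPKM of the list was 98.5, 101.5, 85.5 and 104.5 in TE. It was 86.3, 62.8, 67.4 and 70.2 in E and 63.5 to 73.2 in T, so E1 was the library of another group that overlapped TE.

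**Figure D5:**
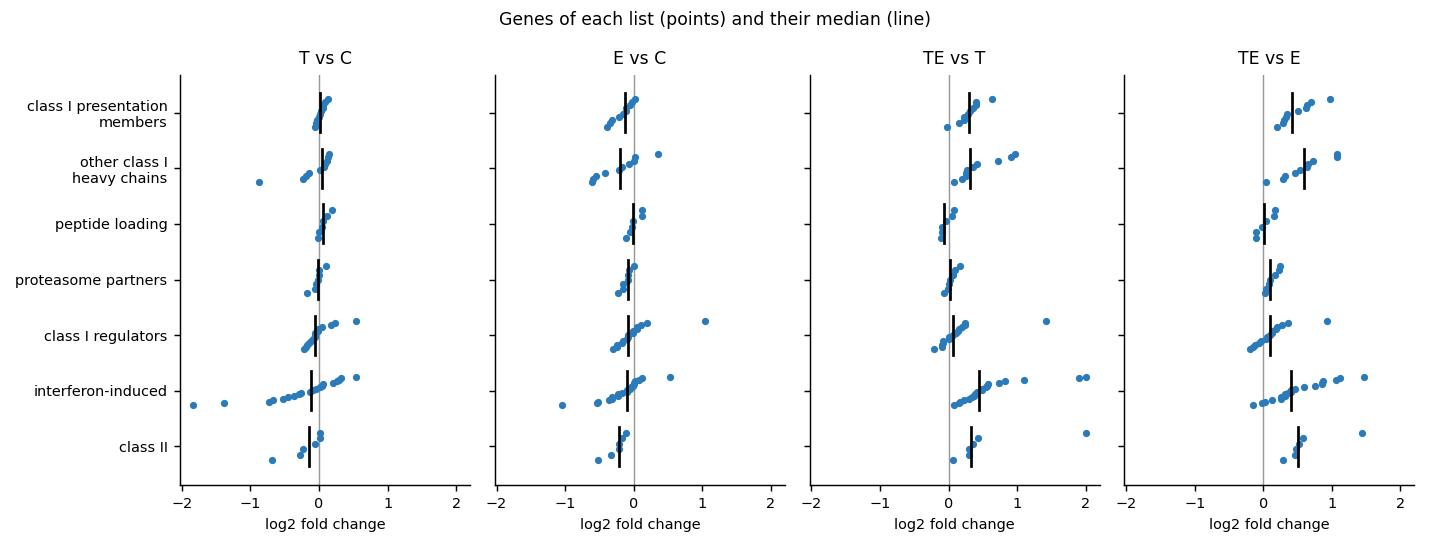
Log2 fold change (x axis) of each tested gene (blue point) of the 10 members and of 6 gene lists (y axis) in T vs C, E vs C, TE vs T and TE vs E, with the median of each list as a black bar. In TE vs E the medians of the members (0.43), the other class I heavy chains (0.59) and the interferon-induced genes (0.40) lie to the right of 0. Of the 20 interferon-induced genes, 18 lie to the right of 0 and 2 to the left. The peptide loading genes (median 0.01) lie around 0.

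The 10 genes varied together across the 16 libraries, which is given as a description because the libraries share groups and, in TE4, a high lymphoid content. H2-D1 followed the mean of the other 9 most closely (Pearson r = 0.960, Spearman rho = 0.953), followed by H2-K1 (r = 0.936, rho = 0.926). Without the 2 libraries farthest from the median, TE4 and E3, these r values were 0.922 and 0.900. Psmb10 (r = 0.674, rho = 0.603) and Tapbp (r = 0.559, rho = 0.526) followed the others least, and both fell below 0.5 without those libraries (r = 0.495 and 0.425). The pair with the highest correlation was B2m and H2-D1 (r = 0.944), which lie on different chromosomes, and the lowest was Tapbp and Psmb10 (r = 0.147).

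Among all other tested genes, the class I heavy chain gene H2-Q4 was most like the mean of the 10. It had an r of 0.951 and a rho of 0.950 over 16 libraries, and 0.944 for r without TE4 and E3. It was followed by H2-T23 (r = 0.932, rho = 0.862), Gm11127 (r = 0.907, rho = 0.865), H2-T22 (r = 0.879, rho = 0.812) and Hmga1 (r = 0.859, rho = 0.894). H2-Q2 (r = 0.848), AW112010 (r = 0.843), Cd27 (r = 0.821), Kri1 (r = 0.820) and Erap1 (r = 0.820) completed the 10. Cd27 is a lymphocyte receptor, and its r was 0.630 without TE4 and E3.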

How the data were processed

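PolyA RNA was sequenced from the gastrocnemius of 4 mice in each of 4 groups, named by the sample labels, which give 1 batch for all 16 libraries. The authors trimmed reads with fastp 0.20.1, aligned them to GRCm39 with HISAT2 2.1.0 and counted them per gene with HTSeq 0.11.2, and the deposited counts are not normalized, tools and versions as given in the submitters' processing notes, which also name DESeq2. The authors also deposited FPKM values, which were checked to equal counts scaled by length and library total. The annotation release and strand setting are not given in the sources used here. The library kit is given as V6 in the labels and as V5 in the methods. The tables held 0 columns of other samples.

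Counts were tested with edgeR 4.0.16 in R 4.3.3, with filterByExpr, TMM factors, 1 coefficient per group over all 16 libraries, glmQLFit and glmQLFTest. The p-values are two-sided and adjusted by the Benjamini-Hochberg method over 14749 genes in each of 7 contrasts. Standard errors were taken from the F statistic, and intervals are 95%. The steps were tested on simulated data first. CPM carries the TMM factors, and correlations used log2 CPM with a prior count of 2. Named genes were the 10 members, genes of hand-written lists and the 10 other genes most like the members. The members and lists were chosen with earlier results of these data known. Replicate numbers are different mice, and same-numbered libraries did not deviate together, with a mean r of −0.01 over 24 pairs, so no block was used. Libraries of a group differed by more than counting error (chi-square per degree of freedom 12.7 to 61.3), and p-values measure the spread between these mice. Alternatives were DESeq2 1.42.0, its size factors, no filter, only the groups compared, a replicate block, a robust fit, limma 3.58.1 (voom with sample weights, or log2(FPKM + 1) and log2(FPKM + 0.1), also with a mean FPKM of at least 1), each library left out and, added after seeing the data, 3 libraries left out. Plots were made in Python 3.11.15 with matplotlib 3.10.9. Values of some single genes of the lists are not reported here.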

Additional observations from a re-analysis of the deposited data

Results flagged for a closer look

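Dixon's test at the 95% level was run on 52 groups of 4 libraries and marked 2 of them, where chance marks about 1 group in 20. Psmb8 in the C group had a low library, C1, at 9.59 CPM against 12.7 to 12.9 CPM in the other 3, with a gap of 0.9584 of the group's range. The ratio of Psmb9 to Psmb6 in the T group had a high library, T2, at 6.66% against 4.17% to 4.41% in the other 3, with a gap of 0.9038 of the range.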

How the results depend on the processing

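Each group held 4 mice, and Nlrc5 rested on as few as 52 counts in a library. Of the values of single members under the alternatives, 1800 kept their direction and side of the adjusted threshold, 47 changed sign and 6 passed the threshold. In TE vs E, every member was higher under each alternative that gave it a value, 26 for Nlrc5 and 27 for each of the other members.

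In TE vs E, members with an adjusted p under 0.05 numbered 2 with DESeq2 (H2-K1, log2 fold change 0.62, adjusted p = 0.0028, and Psmb8, 0.71, adjusted p = 0.0154), 1 with no filter on low counts (H2-K1, 0.62, adjusted p = 0.0275 by edgeR) and 1 with limma-voom sample weights (H2-K1, 0.63, adjusted p = 0.0449). These settings called 180, 69 and 61 genes in all, compared with 34 in the reported edgeR test. Leaving out 1 library at a time gave 0 to 1 such members in TE vs E, the 1 without E1, among 33 genes in all. At an unadjusted p under 0.05 in TE vs E, limma on log2(FPKM + 1) with a mean FPKM of at least 1, which leaves out Nlrc5, gave 6 of 9 members and 983 genes in all. DESeq2 called H2-K1 for the tumor main effect (1 member, 0.34, adjusted p = 0.0273) among 479 genes in all, and limma on FPKM gave 4 members at an unadjusted p under each of 3 settings (2130, 2147 and 1605 genes over all). No filter gave 5 members in TE vs T (1318 over all). In E vs C the count of 1 became 0 with the replicate block (2171 over all) and with limma on FPKM under 3 settings (2029, 2013 and 1569), 2 with only the groups compared (2350) and 3 without the 3 lymphoid-rich libraries (2317). In the training main effect the count of 1 became 0 with the replicate block (1623), with voom weights (1984) and without those 3 libraries (1704). The replicate block changed no call at an adjusted p, and 5 of 16 libraries correlated best with their own number. The cause of these changes was not tested.

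Leaving out 1 library at a time, members at an unadjusted p under 0.05 ranged from 2 to 8 in TE vs T, from 0 to 3 in E vs C, from 4 to 8 for the tumor main effect, from 0 to 2 for the training main effect and from 2 to 9 for the interaction. The sign changed for log2 values near 0. In T vs C, Psmb8 was 0.00037 with the replicate block and 0.024 without the 3 libraries, Tap2 was 0.0011 without them, Psmb9 was −0.029 and −0.036 with limma on log2(FPKM + 1) and log2(FPKM + 0.1), and Nlrc5 was −0.0024 and −0.013. In E vs C, B2m was −0.0101 with voom weights and −0.028 without the 3 libraries, and Tap1 was 0.0016 with limma on log2(FPKM + 1). Psmb10 was −0.023 for the training main effect without the 3 libraries. With 1 library left out, T vs C ranges that crossed 0 were −0.084 to 0.058 (B2m), −0.0034 to 0.12 (H2-D1), −0.0099 to 0.14 (H2-K1), −0.32 to 0.31 (Nlrc5), −0.15 to 0.0052 (Psmb10), −0.10 to 0.081 (Psmb8), −0.16 to 0.075 (Psmb9) and −0.12 to 0.0033 (Tap2). They were −0.058 to 0.084 (B2m) and −0.20 to 0.053 (Tap1) in E vs C, −0.061 to 0.0104 (Tapbp) in TE vs T, and −0.14 to 0.0144 (Psmb8), −0.13 to 0.0496 (Psmb9) and −0.089 to 0.0127 (Tap2) for the training main effect.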
